A study of Homo sapiens with 6 samples.

Results

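The genes described here take iron into the cell, store it and sense it: TFRC, FTH1, FTL, SLC40A1, ACO1, IREB2, SLC11A2, SLC25A37 and NCOA4. They were chosen by name, as 9 genes, and 8 were found in the deposited gene tables, of 12075 genes with FPKM values and 16444 genes on the spike-in scale. SLC40A1, the iron exporter ferroportin, is listed in neither table used here. The cells were KMS-27, an established human multiple myeloma line from bone marrow, transfected either with control siRNA (siControl) or with siRNA that silences AATF, the gene of Che-1 (siChe-1). Each group had 3 libraries of total RNA freed of ribosomal RNA, and ERCC spike-ins, synthetic RNAs added from outside, were counted in each; how much was added, and at which step, is not given. Dose, time after transfection and whether libraries come from separate cultures are not given in the labels, and p-values therefore cover only the variation among the libraries, which may be of technical origin.

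Cells take up transferrin-bound iron through the transferrin receptor and keep what they do not use inside ferritin, a hollow shell built of heavy and light chains. The RNA-binding proteins IRP1 (ACO1) and IRP2 (IREB2) read the iron level. When iron is scarce they bind a short hairpin, the iron-responsive element, in the mRNAs they control. Binding in the 3′ UTR of TFRC mRNA protects it from decay, and binding in the 5′ UTR of ferritin mRNA blocks its translation, so that low iron raises TFRC mRNA and lowers ferritin protein. Dividing cells, plasma cell tumours among them, depend on TFRC for the iron of heme, iron-sulfur clusters and ribonucleotide reductase.

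The hairpins are shown because elements of this kind control the TFRC and ferritin mRNAs. They are given 5′ to 3′ as the transcript reads, from GENCODE transcripts on GRCh38, with the unpaired C and the loop of 6 bases in capitals. TFRC holds 4 matches in its 3′ UTR, on the minus strand of chromosome 3, and each ferritin gene holds 1 in its 5′ UTR. SLC40A1 holds 1 in its 5′ UTR too, which is not shown since the gene has no values here.
TFRC, chr3:196050978-196051007: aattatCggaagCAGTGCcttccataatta
TFRC, chr3:196050574-196050603: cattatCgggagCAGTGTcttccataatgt
TFRC, chr3:196050509-196050538: ctgtatCggagaCAGTGAtctccatatgtt
TFRC, chr3:196050462-196050491: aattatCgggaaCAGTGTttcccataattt
FTH1, chr11:61967573-61967602, minus strand: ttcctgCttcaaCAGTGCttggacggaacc
FTL, chr19:48965335-48965364, plus strand: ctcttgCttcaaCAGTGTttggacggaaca
The letters searched on the transcript strand were C, then 5 bases, then CAGTGN, with the 5 bases pairing with the 5 that follow the loop, G with T allowed. Of 19032 genes with a 5′ UTR, 31 (0.163%) held such a match there, and of 19146 with a 3′ UTR, 128 (0.669%) did. The transcripts of ACO1, IREB2, NCOA4, SLC11A2 and SLC25A37 searched held none, which says only that these letters are not in them. Hairpins with another loop or pairing were not searched for in any gene, so the matches shown for TFRC may not be all.

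AATF, the silenced gene, had 101.5 ± 15.5 FPKM in siControl and only 15.1 ± 1.57 after silencing (SD, n = 3 each; FPKM is fragments per kilobase, scaled for library size). Plasma cell markers were present, 10 of 10, led by IGJ, with a summed FPKM of 7334 to 10739 in siControl and 8699 to 12187 in siChe-1. Erythroid cells are known for high TFRC, and of 10 of their markers 2 were listed with FPKM values, led by EPOR, summing to 1.97 to 2.29 and 1.59 to 1.95. Of 8 macrophage markers 1 was so listed (CD68, 0.58 to 0.82 and 1.11 to 1.29), of 6 T cell markers 1 (CD3G, 0.41 to 0.64 and 0.36 to 0.73), and of 6 stromal markers none. On the spike-in scale 5 erythroid, 5 macrophage, 3 T cell and 3 stromal markers were listed. Of these, 3, 3, 2 and 3 had a mean under 10 normalized reads. The part of other cells in the results was not tested. The authors' spike-in table holds means of 5 libraries, since siChe-1 replicate 3 is not in it. Reads per library could be worked back from these means for 16303 genes, 18825647 to 21388879 per library. For each spike-in read there were 38.1, 55.6 and 56.9 of these gene reads in siControl replicates 1 to 3, and 22.5 and 19.1 in siChe-1 replicates 1 and 2. Spike-in reads themselves numbered 351573 to 519573 in siControl and 835414 and 1041244 in these siChe-1 libraries. siChe-1 replicate 3 had 379232, inside the siControl range, and with its gene reads unknown no such ratio could be formed for it. On the spike-in scale the median gene of the authors' deposited table was therefore lower in siChe-1, by a log2 change of -1.25, and siControl replicate 1 was the lowest control. Each library started from 500 ng of total RNA, and fewer cells, less RNA per cell and more spike-in added cannot be told apart in these bulk libraries.

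Against the spike-ins, every one of the 8 genes had fewer reads in both siChe-1 libraries than in any siControl library. The share of all genes with such a gap was not counted. The median gene, as log2 against the siControl mean, was at -1.12 and -1.37 in siChe-1 replicates 1 and 2. It was at -0.41 in siControl replicate 1, the lowest control, so the gap is no result about the members. TFRC and FTL stood below most genes, and FTH1 above most. The authors' deposited table calls 7 of the 8 lower at an adjusted p under 0.05, all but FTH1, where 63.5% of 12591 genes were called lower. edgeR's quasi-likelihood test, run on the reads worked back, called 8 of 8, against 84.2% of 12450 genes. With most genes called, these counts say little of the members, and their fold changes are compared with the median gene instead. The median log2 fold change of the 8 in the authors' deposited table was -1.60.

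**Figure D1:**
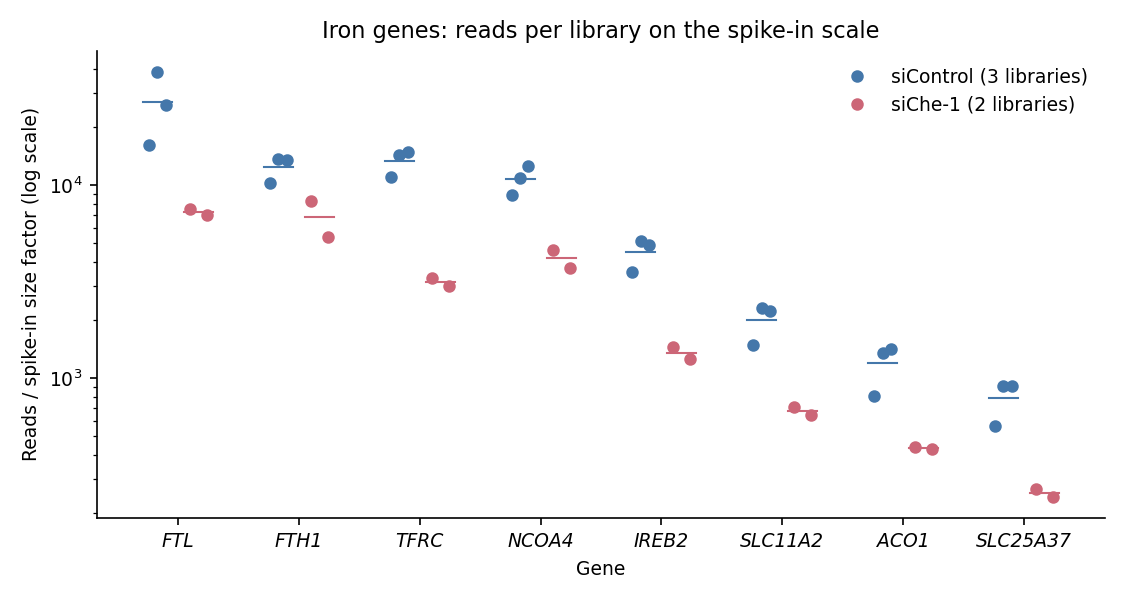
Reads per library divided by the spike-in size factor (vertical axis, log scale) for the 8 iron genes, ordered by their FPKM in siControl. Points are libraries (3 siControl, 2 siChe-1) and lines are means. None of these genes' groups overlap, and the share of all genes without overlap was not counted. FTH1 has the smallest gap, with 8252 reads in its higher siChe-1 library and 10269 in its lowest siControl library.

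Relative to the other genes of the same libraries, the members moved apart. TFRC, FTL and IREB2 fell, FTH1 had a higher mean without passing the test, and NCOA4 differed little. limma on log2(FPKM + 1) of all 6 libraries called 3 of the 6 members with a mean FPKM of at least 10 lower and none higher. Over 6285 genes it called 15.1% lower and 15.1% higher, 948 and 949 genes, or 1279 and 592 with the FPKM scaling as deposited. At an unadjusted p under 0.05, FTH1 alone was higher, and DESeq2 was not run on FPKM. The 2 members under that minimum, ACO1 and SLC25A37, could be tested on the reads of 5 libraries with edgeR scaled on the genes (TMM). That fit called 5 of 8 members lower and none higher. There 14.8% of 12450 genes were lower and 14.0% higher.

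**Figure D2:**
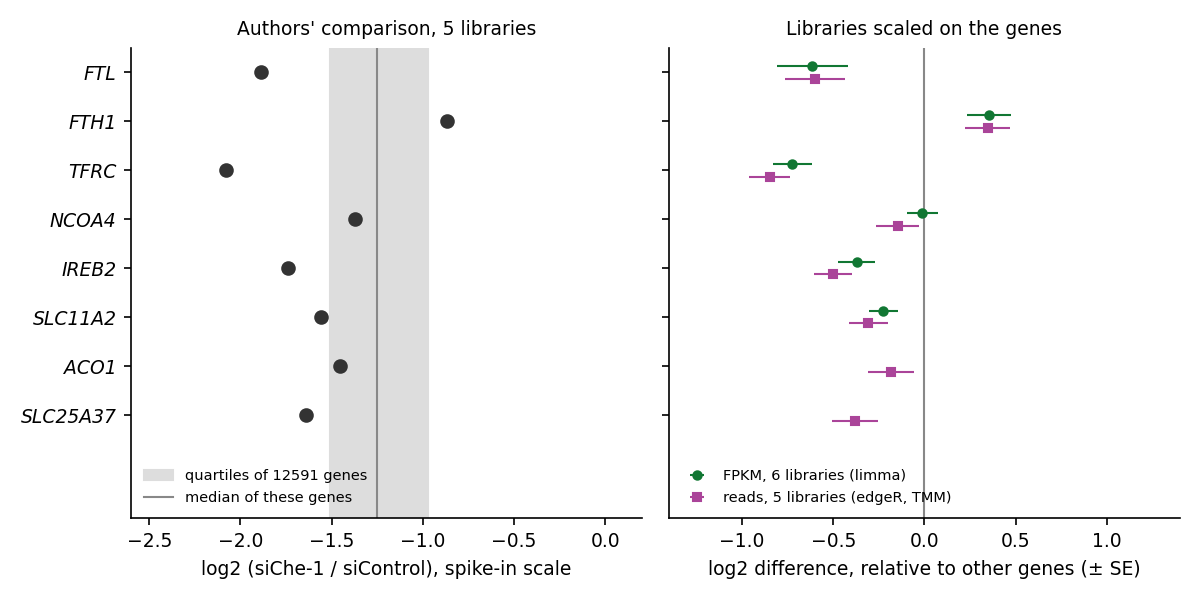
Log2 difference of siChe-1 against siControl for the 8 iron genes. Left, the authors' fold changes against the spike-ins, with the median (-1.25) and quartiles of 12591 genes. Right, differences relative to other genes with standard errors, from FPKM (circles) and from reads (squares). TFRC lies farthest to the left on both scales and FTH1 farthest to the right.

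TFRC encodes the transferrin receptor, the main port of iron entry. It lies on chromosome 3 from 195776155 to 195809032 on the minus strand of hg19. On the spike-in scale siControl replicates 1 to 3 had 10980, 14324 and 14762 TFRC reads, and siChe-1 replicates 1 and 2 had 3319 and 2994. Both siChe-1 libraries lay far under the lowest control. The authors' deposited table has a log2 change of -2.08 (adjusted p 4.17e-05). Of the 12591 genes, 3.87% had a lower fold change. FPKM values were 124.5, 99.0 and 107.4 in the siControl libraries and 64.7, 57.2 and 64.1 in the siChe-1 libraries, a mean of 110.3 ± 13.0 against 62.0 ± 4.15 (SD, n = 3 each). The lowest siControl value was well above the highest siChe-1 value. The limma difference was -0.72 ± 0.10 (SE, log2 scale), with an adjusted p of 0.00305, and TFRC was called in each of the 13 alternatives on FPKM. On reads with TMM, edgeR gave -0.85 with an adjusted p of 0.000162.

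TFRC has 2 transcripts in the FPKM table, NM_001128148 and NM_003234. The first carried 92.8% to 97.0% of the gene's FPKM in every library. Its FPKM fell from 106.6 ± 12.3 in siControl to 58.9 ± 3.86 in siChe-1 (SD, n = 3 each). limma over 6602 transcripts, of which 10% were called lower, gave -0.73 with an adjusted p of 0.00789. The minor transcript had 3.68 ± 0.71 and 3.06 ± 1.43 FPKM, and its groups overlapped. So the fall of TFRC was a fall of its main transcript.

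SLC11A2 encodes DMT1, which moves ferrous iron out of the endosome after transferrin has let it go. Its FPKM was 18.8, 19.3 and 17.7 in siControl, against 14.8, 14.9 and 14.6 in siChe-1. The groups did not overlap, the siChe-1 values being almost equal. Yet limma's difference of -0.23 ± 0.08 (SE, log2) had an adjusted p of 0.0696, and 4 of 13 alternatives called it. edgeR with TMM called it at -0.31 with an adjusted p of 0.0480. That call was lost, with adjusted p values of 0.0728 to 0.181, without each library in turn except siControl replicate 2. Normalized reads were 1480, 2299 and 2241 in siControl, with 713 and 649 in siChe-1, and the log2 change in the authors' deposited table was -1.56 (adjusted p 0.00173).

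The FPKM of SLC11A2 was spread over 6 transcripts, and their mix varied among libraries of 1 group. NM_001174128 was the most abundant, at 6.62 ± 1.05 in siControl and 7.23 ± 1.52 in siChe-1. NM_001174127 had 4.64 ± 2.31 and 1.69 ± 0.97 FPKM (SD, n = 3 each). No SLC11A2 transcript reached a mean of 10, and with a minimum of 1 limma called none of the 4 then tested.

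FTL encodes the light chain of ferritin, which helps form the iron core. It was the most abundant member by FPKM in both groups. Its FPKM was 806.5, 1194 and 913.0 in siControl, against 541.8, 716.1 and 518.2 in siChe-1. The siControl values spread widely, but the lowest of them was above the highest siChe-1 value. limma gave -0.61 ± 0.20 (SE, log2) with an adjusted p of 0.0489, just inside the threshold. The call was lost, with adjusted p values of 0.0900 to 0.163, without siControl list position 2 or 3 or siChe-1 list position 1 or 3; positions are those in the FPKM lists, which carry no replicate numbers. Upper-quartile scaling also lost it (0.0797), and 8 of 13 alternatives kept it. limma over transcripts did not call the only transcript of FTL, NM_000146 (adjusted p 0.0890). With TMM edgeR gave -0.60 and an adjusted p of 0.0147. This difference shrank to -0.38 without siControl replicate 2 and was not called without siChe-1 replicate 1 (adjusted p 0.145) or 2 (0.0725).

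On the spike-in scale FTL had 16077, 38386 and 25948 normalized reads in siControl, with 7465 and 7029 in siChe-1. Replicate 2 was the highest control and replicate 1 the lowest. In the authors' deposited table the log2 change was -1.89 (adjusted p 0.0395), and of the genes tested 7.0% were lower.

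FTH1 encodes the heavy chain, which oxidises ferrous iron as it enters the shell. It was the one member whose FPKM was higher in siChe-1 than in siControl, at 451.6, 362.1 and 387.0 against 361.6, 305.2 and 334.2. The groups did not overlap, but the lowest siChe-1 value, 362.1, was next to the highest siControl value, 361.6. limma gave 0.35 ± 0.12 (SE, log2; 95% interval 0.07 to 0.63) with an adjusted p of 0.0594, and 2 of 13 alternatives called it. edgeR with TMM gave 0.35 with an adjusted p of 0.0508. FTH1 was thus not called in these main fits. Among the FPKM alternatives, upper-quartile scaling (limma adjusted p 0.0255) and limma without a trend (0.0470) called it higher with all 6 libraries. With TMM 3 of 7 alternatives called it higher. The fit with the replicate number as a block, on all 5 libraries, was 1 of them (edgeR adjusted p 0.0381). Another left out siControl replicate 1 (0.0438). Leaving out 1 library took the TMM difference from 0.14 without siChe-1 replicate 1 to 0.51 without siChe-1 replicate 2.

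Against the spike-ins FTH1 went the other way. Normalized reads were 10269, 13588 and 13438 in siControl, with 8252 and 5385 in siChe-1. In the authors' deposited table the log2 change was -0.87 (adjusted p 0.0531), and 81.4% of genes had a lower one. edgeR on the same scale had an adjusted p of 0.00896, which rose to 0.258 without siChe-1 replicate 2, the lower of the pair, and to 0.0765 and 0.0568 without siControl replicates 2 and 3. FTH1 and FTL have processed pseudogenes of near-identical sequence, and the span given for FTH1, chromosome 11 from 61717356 to 61735132 on the minus strand of hg19, takes in the neighbouring gene BEST1, so that their values are uncertain. In the authors' deposited table BEST1 had a mean of 36.9 normalized reads and the pseudogene FTH1P3 a mean of 42.9, both small beside FTH1. These means do not show how reads that also fit FTH1 were assigned, which was not tested. No pseudogene named as a copy of FTL was found there.

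NCOA4 encodes the receptor that carries ferritin to the lysosome, where its iron is freed. Its FPKM was 88.9, 76.4 and 88.6 in siControl, against 77.9, 75.5 and 82.1 in siChe-1, and the groups overlapped. limma gave -0.01 ± 0.08 (SE; 95% interval -0.21 to 0.18) with an adjusted p of 0.937. edgeR with TMM gave -0.15 with an adjusted p of 0.380. Against the spike-ins it had 8904, 10873 and 12543 normalized reads in siControl and 4621 and 3713 in siChe-1. The authors' deposited table gives -1.37 with an adjusted p of 0.00359, near the median gene, and edgeR lost the call without siChe-1 replicate 2 (adjusted p 0.0540). Its main transcripts, NM_005437 and NM_001145263, had 56.7 ± 13.0 and 27.2 ± 6.49 FPKM in siControl against 53.8 ± 7.0 and 24.5 ± 5.40 after silencing (SD, n = 3 each).

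**Figure D3:**
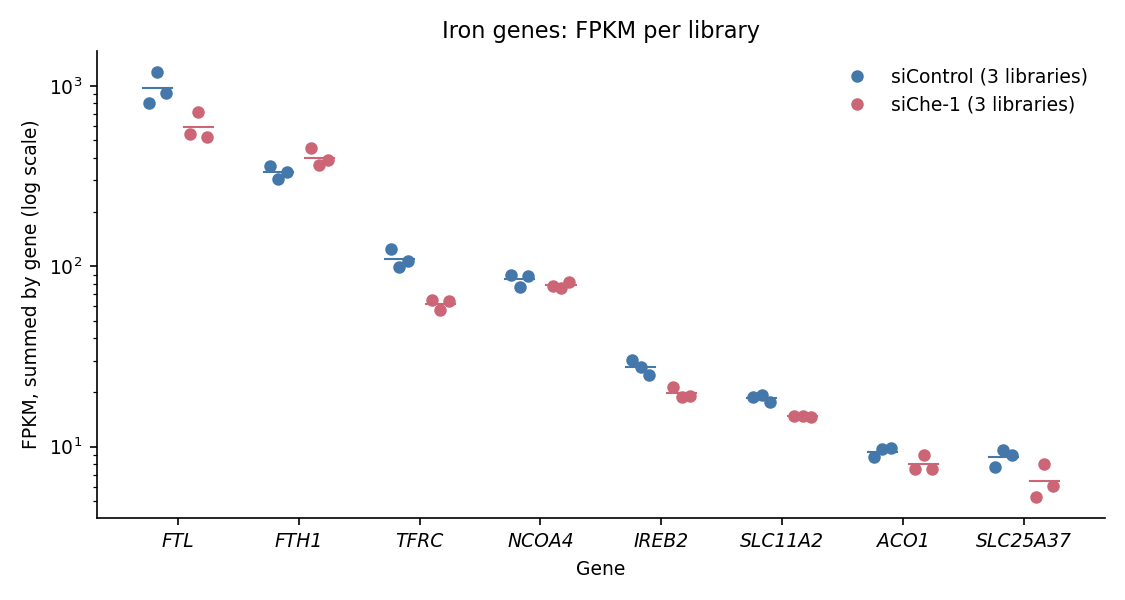
FPKM per library (vertical axis, log scale), summed over the transcripts of each gene, for the 8 iron genes in 3 siControl and 3 siChe-1 libraries. Lines are means. In siControl TFRC lies above NCOA4, and in siChe-1 its values of 57.2 to 64.7 lie under the 75.5 to 82.1 of NCOA4.

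IREB2 encodes IRP2, the sensor that is degraded when iron is plentiful. Its FPKM was 30.3, 27.7 and 25.0 in siControl, against 21.3, 18.9 and 19.1 in siChe-1, a mean of 27.7 ± 2.65 against 19.8 ± 1.35 (SD, n = 3 each). The groups did not overlap. limma gave -0.37 ± 0.10 (SE, log2) with an adjusted p of 0.0296. The call was lost, with adjusted p values of 0.0584 to 0.108, without siControl list position 1 or 2 or siChe-1 list position 2 or 3. Upper-quartile scaling lost it too (0.0542), and 8 of 13 alternatives kept it. limma over transcripts did not call the only transcript of IREB2, NM_004136 (adjusted p 0.0617). edgeR with TMM gave -0.50 with an adjusted p of 0.00316, called without each library in turn. Normalized reads were 3548, 5109 and 4912 in siControl, with 1449 and 1261 in siChe-1. The authors' deposited table gives -1.74 with an adjusted p of 0.000518, and 11.4% of genes had a lower fold change.

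ACO1 encodes IRP1, which is an aconitase while it holds an iron-sulfur cluster and binds RNA once the cluster is lost. Its FPKM was 8.72, 9.65 and 9.77 in siControl, against 7.53, 9.02 and 7.56 in siChe-1, with 1 siChe-1 library above the lowest control. With a minimum FPKM of 1, limma gave -0.17 ± 0.09 (SE) with an adjusted p of 0.201. edgeR with TMM gave -0.19 with an adjusted p of 0.293. Against the spike-ins it had 812, 1356 and 1413 normalized reads in siControl and 439 and 432 in siChe-1. The authors' deposited table gives -1.45 with an adjusted p of 0.0105, and edgeR lost the call without siChe-1 replicate 2 (adjusted p 0.0508).

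SLC25A37 encodes mitoferrin-1, which brings iron into mitochondria for heme and iron-sulfur clusters. Its FPKM was 7.70, 9.53 and 8.98 in siControl, against 5.29, 8.01 and 6.03 in siChe-1. The groups overlapped through 1 siChe-1 library, and with a minimum of 1 limma gave -0.37 ± 0.14 (SE) with an adjusted p of 0.0832. edgeR with TMM called it at -0.38 with an adjusted p of 0.0368, a call lost, with adjusted p values of 0.0601 to 0.165, without each library in turn except siControl replicate 2. Normalized reads were 565, 911 and 909 in siControl, with 267 and 244 in siChe-1, with -1.64 and an adjusted p of 0.00227 in the authors' deposited table.

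By FPKM, which is per length, the order of levels in siControl was FTL, FTH1, TFRC, NCOA4, IREB2, SLC11A2, ACO1 and SLC25A37. Neighbours in this order did not overlap across the 3 libraries except ACO1 (8.72 to 9.77) and SLC25A37 (7.70 to 9.53). In siChe-1 the order was the same except that TFRC came after NCOA4, with no overlap between them. ACO1 (7.53 to 9.02) and SLC25A37 (5.29 to 8.01) overlapped there too.

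Ratios within a library do not depend on how libraries are scaled. The ratio of TFRC to FTH1 in FPKM sets a gene of uptake against the heavy chain of ferritin only. FTL, the more abundant light chain gene, fell as TFRC did, with limma log2 differences of -0.61 and -0.72 on FPKM. A ratio of TFRC to FTL was not compared, so this ratio does not speak for storage as a whole. The TFRC to FTH1 ratio was 0.344, 0.324 and 0.321 in siControl, against 0.143, 0.158 and 0.166 in siChe-1. Its mean was 0.330 ± 0.012 against 0.156 ± 0.011 (SD, n = 3 each). The 2 groups were tight and far apart, a log2 difference of -1.09 or 2.12-fold. The two-sided exact permutation p was 0.1, the smallest that 3 libraries against 3 can give, and 0.15 adjusted over the 3 ratios compared. Reads of 5 libraries gave a log2 difference of -1.18, with an exact permutation p of 0.2, the smallest for 3 against 2.

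The ratio of the light to the heavy ferritin chain, FTL to FTH1, was 2.23, 3.91 and 2.73 in siControl, against 1.20, 1.98 and 1.34 in siChe-1. The groups did not overlap, although each varied: 2.96 ± 0.86 against 1.51 ± 0.41 (SD, n = 3 each). The log2 difference was -0.97, with an exact permutation p of 0.1 and 0.15 adjusted. The ratio of the sensors, IREB2 to ACO1, was 3.47, 2.87 and 2.56 in siControl, against 2.83, 2.09 and 2.53 in siChe-1, and the groups overlapped. Its log2 difference was -0.25, with an exact permutation p of 0.2 and 0.2 adjusted, and it shrank to -0.14 without siControl list position 1 or siChe-1 list position 2.

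**Figure D4:**
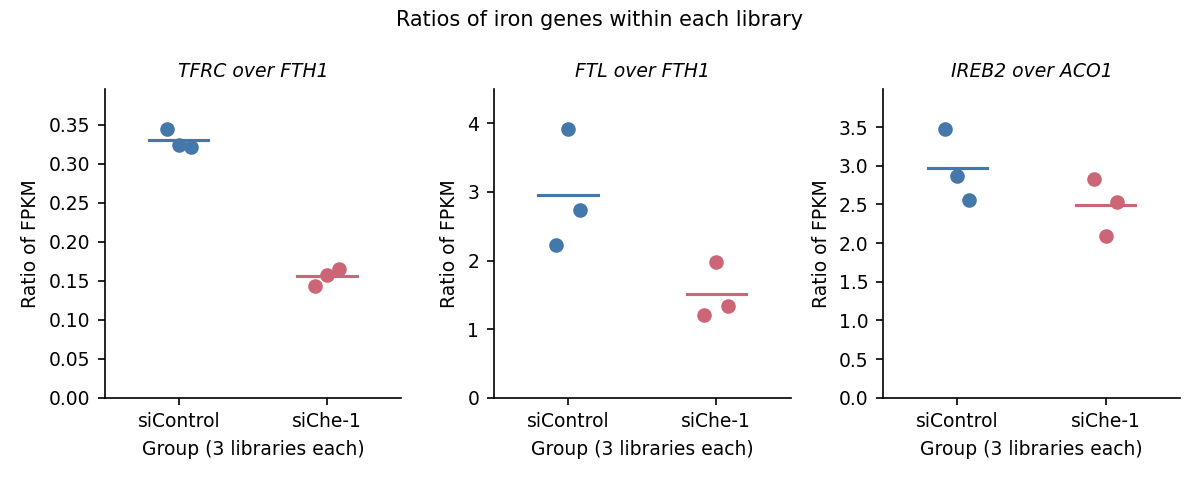
Ratios of FPKM within each of 3 siControl and 3 siChe-1 libraries, each axis starting at 0; points are libraries and lines are means. The ratio of TFRC to FTH1 is 0.321 to 0.344 in siControl and 0.143 to 0.166 in siChe-1, while that of IREB2 to ACO1 overlaps between the groups.

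Other genes of iron handling were taken from 10 lists by function, 87 genes beyond the members, of which 83 were in a table. These lists, too, were chosen with earlier results of these data known. On FPKM 42 could be tested, and 11 were lower and 1 higher, beside 15.1% of all genes each way, with a median log2 difference of -0.13 beside 0.00 for all genes. On reads with TMM, 72 were tested, and 22 were lower and 3 higher, beside 14.8% and 14.0% of all genes. These shares are the background of every list count that follows. With few genes in a list, a count near them is no result about the list. In all these counts, lower and higher mean called so at an adjusted p under 0.05. The authors' deposited table calls 60 of 73 lower and none higher, where 63.5% of 12591 genes were called lower and 8 genes higher.

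Of the uptake genes other than TFRC and SLC11A2, both tested on FPKM fell. SLC39A14 (ZIP14), a carrier of iron not bound to transferrin, had 37.0 ± 1.03 FPKM in siControl and 22.9 ± 0.64 in siChe-1 (log2 difference -0.58, limma adjusted p 0.00158). SLC39A8 (ZIP8), of the same family, had 28.9 ± 2.63 and 14.7 ± 0.94 (SD, n = 3 each; log2 difference -0.84, limma adjusted p 0.000969). On reads with TMM 5 of 7 such genes were called lower and none higher, beside 14.8% of all genes lower, with a median of -0.97. STEAP3, the reductase that turns ferric into ferrous iron in the endosome, was at -0.97 there. STEAP1 was at -1.25 and TFR2, a second transferrin receptor, at -0.87. HFE, also of the uptake list, went the other way at 0.39 without a call (edgeR adjusted p 0.557). STEAP2, at -1.48, was not called either (0.0600). The STEAP genes, TFR2 and HFE were named after their values were seen. STEAP3 and TFR2 were both low, at 1.42 and 1.04 FPKM in siControl.

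No storage gene beyond the members was called lower on either relative scale. The iron chaperones PCBP1 and PCBP2, which hand iron to ferritin, had log2 differences on FPKM of 0.08 and 0.48, with limma adjusted p values of 0.754 and 0.0789. With TMM 2 of 5 were higher, PCBP2 at 0.35 and PCBP3 at 1.09, the latter named after its values were seen. PCBP4, also named after its values were seen, went the other way at -0.56 without a call (edgeR adjusted p 0.0668). PCBP3 and PCBP4 were both low, at 1.11 and 1.45 FPKM in siControl. Of export genes only CP, the ferroxidase ceruloplasmin, could be tested, at -1.0 with an edgeR adjusted p of 0.152 under TMM; its FPKM went the other way, 0.41 ± 0.16 in siControl, against 0.52 ± 0.03 in siChe-1 (SD, n = 3 each).

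Among regulators of iron sensing other than the IRPs, 1 of 4 was lower on FPKM, beside 15.1% of all genes. SKP1, part of the ubiquitin ligase that marks IRP2 for degradation, had 128.2 ± 14.7 FPKM in siControl and 92.7 ± 2.63 in siChe-1 (limma adjusted p 0.0346). BMP6, a signal for hepcidin in liver, had 51.6 ± 2.06 and 43.1 ± 0.32 (SD, n = 3 each; limma adjusted p 0.114). Of other mRNAs known to carry an iron-responsive element, 1 of 3 was higher and none lower. CDC42BPA, a kinase, rose from 14.2 ± 1.48 to 19.3 ± 0.93 FPKM (SD, n = 3 each; log2 difference 0.51, limma adjusted p 0.00603), and PFN2, an actin-binding protein, had 33.8 ± 4.44 and 34.5 ± 3.05.

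Mitochondrial import and heme genes were mixed. Of mitochondrial import genes other than SLC25A37, 0 of 2 passed the limma test on FPKM, neither of them at an unadjusted p under 0.05: SLC25A28 (mitoferrin-2) was at 0.10 and ABCB10, a mitochondrial transporter, at -0.13. In heme synthesis 2 of 6 were lower on FPKM, beside 15.1% of all genes. ALAS1, the first enzyme of the path, was at -0.41 and UROD, a later one, at -0.24 (not called with TMM, edgeR adjusted p 0.13), while UROS, at -0.09, had a limma adjusted p of 0.493. In heme breakdown and transport 1 of 3 was lower, HMOX2, a heme oxygenase, at -0.40, with BLVRB at -0.14 and a limma adjusted p of 0.289.

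In mitochondrial iron-sulfur cluster assembly 3 of 11 genes were lower on FPKM and none higher, and with TMM 8 of 18, beside 15.1% and 14.8% of all genes lower. LYRM4, a partner of the desulfurase, fell from 48.0 ± 3.61 to 32.9 ± 1.10 FPKM and BOLA3, a late assembly factor, from 140.8 ± 22.8 to 89.5 ± 3.38 (SD, n = 3 each; limma adjusted p 0.00603 and 0.0113). HSPA9, the chaperone of this path, had 372.5 ± 44.5 and 297.1 ± 19.1, with an adjusted p of 0.146. In cytosolic assembly 2 of 9 were lower on FPKM and none higher, a share near the 15.1% of all genes, and with TMM 5 of 13, beside 14.8%. GLRX3 was at -0.44 and CIAPIN1, an electron carrier, at -0.38, and FAM96A, at -0.35, had a limma adjusted p of 0.0592.

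**Figure D5:**
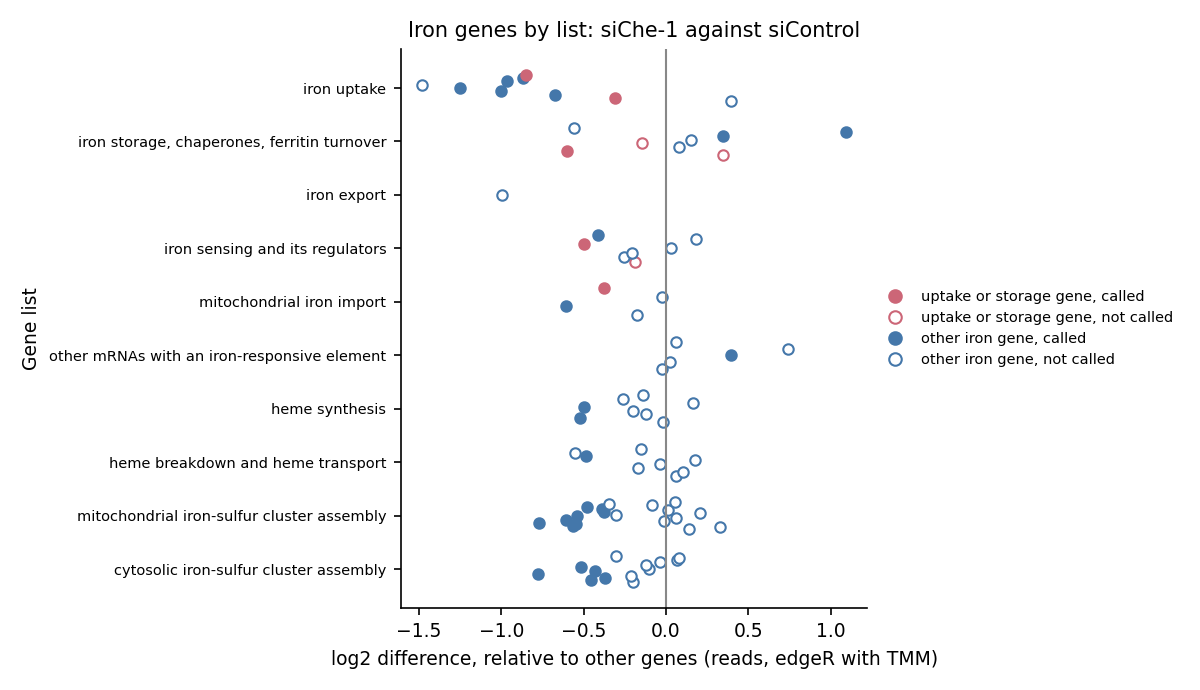
Log2 difference of siChe-1 against siControl relative to other genes (edgeR with TMM, reads of 5 libraries) for each tested gene of the 10 iron lists, 1 point per gene; filled points have an adjusted p under 0.05. In the uptake list 7 of 9 genes were called lower, and in the storage list 1 of 8 lower and 2 higher. Of all genes tested, 14.8% were called lower and 14.0% higher.

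The genes whose log2 FPKM across the 6 libraries ran closest to that of TFRC, after each gene's mean was taken off, were MYLK, CSE1L and LSM12. Their distances, the root of the summed squared differences over the 6 libraries, were 0.04, 0.10 and 0.11, and the median of 6284 genes was 0.98. They were picked as the nearest, so lying under that median is no result. The distance includes the difference between the groups, so genes that fell as much as TFRC lie near it. CSE1L, a nuclear export factor for importin alpha, had 224.7 FPKM in siControl and 126.2 in siChe-1.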

How the data were processed

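RNA of siControl and siChe-1 KMS-27 cells was compared. Per the file headers, the authors deposited raw read counts of 92 spike-ins in 6 libraries. Per the file headers, their gene comparison gives a signal (reads divided by spike-in size factors, averaged by group), the ratio of the groups, its log2, and a p-value with its adjusted form. The third table holds the authors' FPKM of transcripts by group and library, a log2 ratio and q-values, per the file headers. The submitters' processing notes name hg19 and the tools TopHat, Cufflinks, Cuffdiff, HTSeq and DESeq2; their roles and versions, and whether counting used the strand, are not given in the sources used here.

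Means in the gene comparison rest on 5 libraries: 2139 of 2139 low siChe-1 means were whole-read sums with replicates 1 and 2, and 0 with any other pair. Whole reads were worked back for 16303 genes (99.1%), all 8 members included; the 141 most abundant genes, with 21.1% of the siControl signal, were not searched. The method was first tested on simulated data.

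FPKM was summed by gene over assembled chromosomes. Genes with a mean of at least 10 were rescaled by the median of ratios and tested as log2(FPKM + 1) with limma 3.58.1, with a mean-variance trend. Folds on this scale understate the change of low genes. Reads of 5 libraries were tested with edgeR 4.0.16 (quasi-likelihood), with spike-in size factors or TMM, and with DESeq2 1.42.0 as an alternative. All were adjusted by Benjamini-Hochberg, two-sided, threshold 0.05. limma on FPKM and edgeR with spike-in size factors were tested on simulated data; the TMM setting was not.

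The planned test of spike-in values per library was replaced by the authors' comparison, since the table holds means. The TMM fits that left out a library or used the replicate block were not planned. Members and lists were chosen with earlier results of these data known. Named genes are the members, AATF, of each list the most abundant gene and the 2 with the smallest p on FPKM, of each marker list the most abundant, and the 3 genes nearest to TFRC. Those named after their values were seen are marked. Starts are counted from 1.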

Additional observations from a re-analysis of the deposited data

How the results depend on the processing

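On FPKM, 13 alternatives were run for each tested member, and against the spike-ins 11. Of all values that answer a comparison, 46 stayed within their limits and 26 moved; of single members' values 168 stayed, 35 lost a call, 14 gained one and 5 changed sign. The sign changes were FTH1 against the spike-ins, which became 0.35 with TMM and 0.34 with the median of ratios over genes, and NCOA4 on FPKM, which became 0.053 with the upper quartile and ranged from -0.061 to 0.023 as each library was left out. Genes called on FPKM numbered 1444 higher and 1490 lower with a minimum FPKM of 1, and 1465 and 1579 with none. They numbered 592 and 1279 with the scaling as deposited, 1221 and 713 with the upper quartile and 634 and 1207 with the median of ratios over all genes. Leaving out 1 library gave 484 to 853 higher and 500 to 890 lower, the fewest without siChe-1 list position 3. Against the spike-ins edgeR called 24 genes higher, DESeq2 20 and edgeR with no minimum 38; TMM gave 1743 higher and 1847 lower, and the median of ratios 1705 and 1888. Leaving out 1 library gave 5 to 32 higher and 2786 to 11623 lower, the fewest without siChe-1 replicate 2; the values were 23, 32 and 15 higher without siControl replicates 1, 2 and 3. Where 1 siChe-1 library was left, it is assumed to vary like the others. The log2 difference of the TFRC to FTH1 ratio was -1.18 on reads. With the replicate number as a block on the spike-in scale, 1 gene was higher and 58 lower, and no member was called (adjusted p 0.205 to 0.328). With TMM and the block, SLC11A2 (0.0707) and SLC25A37 (0.0596) lost their calls, FTL kept its call, and FTH1 gained one as higher (0.32, adjusted p 0.0381). The labels give these numbers no meaning, and only 2 pairs exist: same-numbered libraries' deviations from their group means correlated over genes at 0.20 and 0.22. With 2 siChe-1 libraries, the deviations mirror each other. So siControl 1 with siChe-1 2 had to give -0.20, and siControl 2 with siChe-1 1 had to give -0.22. Both correlations rest on the same siChe-1 difference and are not independent. FPKM lists carry no replicate number, so no block was possible there. The causes of these shifts were not tested. The spike-in comparison has 2 siChe-1 libraries, and the gene reads of siChe-1 replicate 3 are unknown.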
